A study of Mus musculus with 22 samples.

Results

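The principal cell of the collecting duct takes up sodium through the epithelial sodium channel ENaC and secretes potassium through the channel ROMK, both driven by the sodium pump in the basolateral membrane. A set of 9 genes of this machinery was examined for binding of CREB1, a transcription factor activated by cAMP signalling, and of the transcription factor C/EBP beta: Scnn1a, Scnn1b and Scnn1g, which encode the alpha, beta and gamma subunits of ENaC, Kcnj1 (ROMK), Atp1b1 and Fxyd4 of the sodium pump, and the regulators Nr3c2, Sgk1 and Nedd4l. The members were chosen by name from 21631 protein-coding genes, as genes of sodium and potassium transport in the principal cell. They and the wider gene lists used below were chosen with earlier results of these data known. Their shares, set beside those of all genes, are therefore descriptions and not a test. All 9 were found in the gene table. A peak was given to a gene when its centre lay in the gene or within 100 kb of it, a span called the window below.

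Binding was mapped by chromatin immunoprecipitation followed by sequencing (ChIP-seq) in mpkCCD cells, clone 11, a mouse cortical collecting duct line that responds to vasopressin. The cells were grown to confluency on permeable supports in a medium with dexamethasone, a glucocorticoid, then kept without serum and hormones for a day, and finally given 0.1 nM dDAVP, an agonist of the vasopressin V2 receptor, or vehicle for 30 min. There were 4 CREB1 samples per treatment, 2 C/EBP beta samples per treatment and 10 input samples without antibody, 22 in all. All groups share the single clone, the medium and the harvest time, and they differ in the antibody and in dDAVP. By the labels, only 2 of the 10 inputs are named for both antibodies. CREB1 and C/EBP beta may thus also differ by experiment, which cannot be told apart from the antibody in these lists. The labels number the experiments and do not say whether each was a culture of its own.

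The deposited data were 4 peak lists, 1 per antibody and treatment. The CREB1 lists held 785 peaks after vehicle and 406 after dDAVP. The C/EBP beta lists held 209 peaks after vehicle and 2401 after dDAVP. Each list gives 1 set of peaks with no values per sample. The peak names in both C/EBP beta lists carry the label of replicate 1, and which samples of a group the lists draw on is not known for either factor. The read depth is unknown. No value below therefore has an error over samples, and the effect of dDAVP could not be tested. Absence of a peak means that none was called, and says nothing on whether the factor was bound below the calling threshold. Gene expression was not analysed here, and the cell type could not be checked against marker genes.

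In principal cells aldosterone enters the cell and activates the mineralocorticoid receptor, encoded by Nr3c2, which turns on Sgk1. The SGK1 kinase phosphorylates the ubiquitin ligase NEDD4-2, encoded by Nedd4l, and so keeps ENaC in the apical membrane. Vasopressin acts on the same cells through cAMP and protein kinase A, the kinase that phosphorylates CREB1, and raises ENaC activity and water permeability. C/EBP beta is a leucine zipper factor that also responds to glucocorticoids and cAMP in other tissues.

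C/EBP beta peaks stood in the windows of 5 of the 9 genes after dDAVP, Scnn1a, Scnn1b, Nedd4l, Fxyd4 and Kcnj1 (55.6%), and in those of Scnn1a and Kcnj1 after vehicle (2 of 9, 22.2%). No CREB1 peak of either treatment stood in any of the 9 windows. Over all protein-coding genes, 29.5% had a C/EBP beta peak in the window after dDAVP and 3.47% after vehicle. The corresponding shares for CREB1 were 18.0% after vehicle and 10.4% after dDAVP. With 9 genes taken as independent, a count of 0 allows a share of up to 33.3% (3 of 9). The windows of Scnn1b and Scnn1g overlap, so this limit is approximate. It includes both CREB1 shares of all genes, so a scarcity of CREB1 at these genes was not detectable. Scnn1g, Sgk1, Atp1b1 and Nr3c2 had no peak of either factor in the window, as was the case for 61.1% of all genes.

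**Figure D1:**
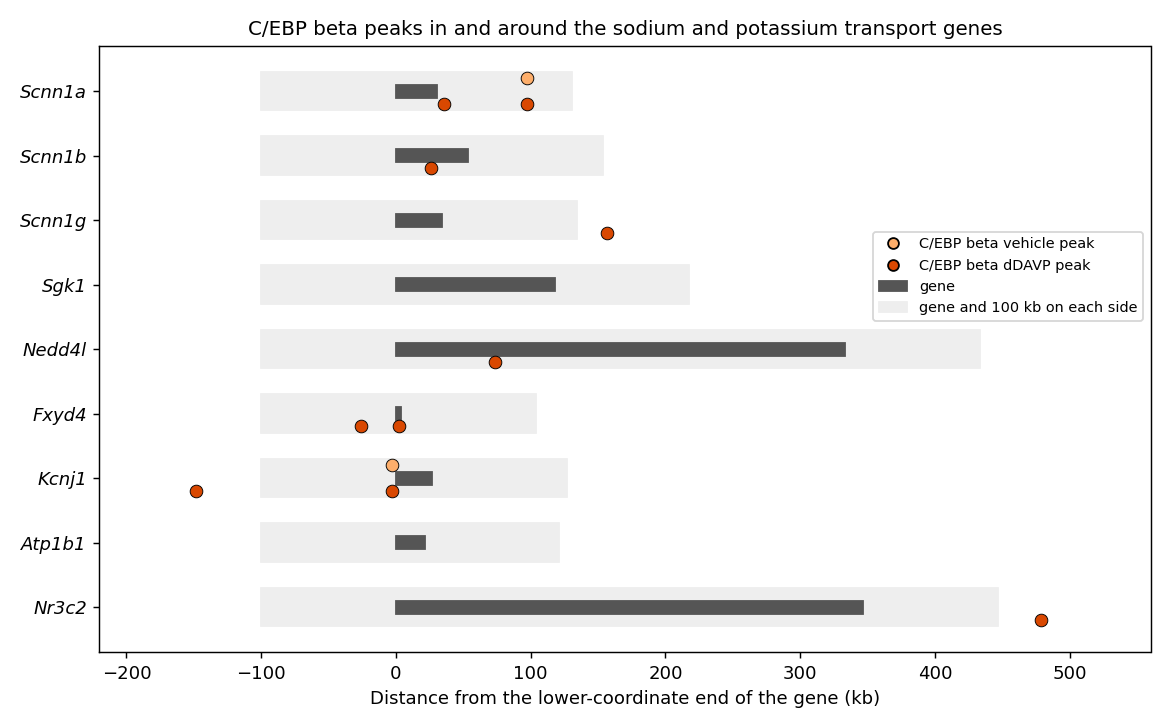
Position of C/EBP beta peak centres around the 9 transport genes, in kb from the end of the gene with the lower coordinate; dark bars are genes, grey bars the genes with 100 kb on each side, light orange circles vehicle peaks and dark orange circles dDAVP peaks up to 200 kb from the gene. Only Scnn1a and Kcnj1 hold vehicle peaks in the span shown, each above a dDAVP peak, and no CREB1 peak lay within 200 kb of any of these genes.

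The C/EBP beta peaks of the dDAVP list lay close to the genes. At a limit of 5 kb the same 5 genes had a peak (55.6%), where 7.83% of all genes did, and 3 of them, Scnn1b, Nedd4l and Fxyd4, held the peak inside the gene (33.3%, against 4.87% of all genes). After vehicle Kcnj1 alone had a C/EBP beta peak within 5 kb (11.1%, against 0.781% of all genes). For CREB1 within 5 kb, the shares of all genes were 5.17% after vehicle and 2.72% after dDAVP. The 9 genes are longer than most, with a median length of 34.1 kb against 17.3 kb for all genes, and the part of gene length in these shares was not tested. Their windows covered 2.67 Mb, which held 7 C/EBP beta dDAVP peaks (2.63 per Mb) and 2 vehicle peaks (0.75 per Mb). The windows of all genes held 1.20 and 0.105 per Mb.

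**Figure D2:**
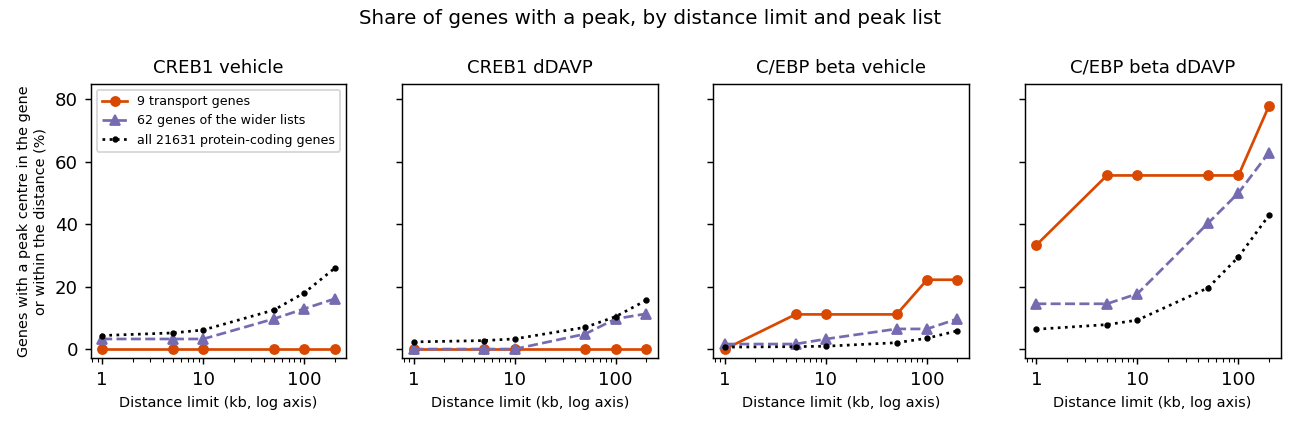
Percentage of genes with a peak centre in the gene or within a distance limit of 1 to 200 kb (log axis), for each peak list; orange circles are the 9 transport genes, purple triangles the 62 genes of wider transport lists and black dots all 21631 protein-coding genes. For C/EBP beta after dDAVP the 9 genes stand at 55.6% from 5 to 100 kb while all genes rise from 7.83% to 29.5%, and for CREB1 they stay at 0 at each limit.

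Kcnj1, on chromosome 9 from 32372418 to 32399197 on the plus strand, had the highest-scoring C/EBP beta site among those whose nearest gene was a member. ROMK, its product, is the apical channel through which principal cells secrete potassium. The C/EBP beta peak after vehicle spanned chr9:32369571-32369827, 257 bp with a deposited score of 172, rank 74 of 209 in its list. After dDAVP the peak spanned chr9:32369491-32369922, 432 bp with a score of 1423, rank 63 of 2401. The vehicle peak lay wholly inside the dDAVP peak and the centres were 8 bp apart. The site was 2711 bp (dDAVP) and 2719 bp (vehicle) before the gene's first base, so it was upstream of the whole gene. From the single start site in the promoter table, which lies inside the gene, the dDAVP centre was 24.3 kb upstream. The next nearest gene was Kcnj5, another inward rectifier potassium channel gene, 25.3 kb from the peak, followed by Fli1 at 52.5 kb. A further dDAVP peak, 148 kb away in Arhgap32, fell outside the window.

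Scnn1a, on chromosome 6 from 125314271 to 125344943, had 2 C/EBP beta sites, and both lay past its end with the higher coordinate, among other genes. Its subunit alpha is required for ENaC to reach the membrane. The farther site was in both lists, at chr6:125411073-125411347 after vehicle (275 bp, score 124, rank 112 of 209) and at chr6:125411012-125411405 after dDAVP (394 bp, score 1474, rank 56 of 2401). The vehicle peak lay inside the dDAVP peak, with centres 1 bp apart. It was 66.3 kb from Scnn1a with Tnfrsf1a and Plekhg6 in between, and 29.6 kb from Plekhg6, the nearest gene. The closer site, in the dDAVP list alone, spanned chr6:125349605-125349878 (274 bp, score 179, rank 1289 of 2401). Its centre was 4799 bp from Scnn1a but 19 bp past the start of Tnfrsf1a, which encodes a receptor for tumor necrosis factor. Scnn1a was therefore the nearest gene of neither site. Counting a peak only for its nearest gene left 4 members after dDAVP, Scnn1b, Nedd4l, Fxyd4 and Kcnj1 (44.4%, against 8.75% of all genes).

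The closer site covered 118 of the 250 bases before the Tnfrsf1a start, and a site in the window of Fxyd4 covered 154 of the 250 bases before a start of Hnrnpf, which encodes a nuclear RNA-binding protein. These are the only promoter windows of the RefSeq table (GRCm38.p6, the assembly of mm10) that a peak in the 9 windows overlapped, and they are shown because both sites count for a transport gene by distance while standing at the start of a neighbour. Bases under the peak are in capitals, 5′ to 3′.
Tnfrsf1a, chr6:125349473-125349722, plus strand: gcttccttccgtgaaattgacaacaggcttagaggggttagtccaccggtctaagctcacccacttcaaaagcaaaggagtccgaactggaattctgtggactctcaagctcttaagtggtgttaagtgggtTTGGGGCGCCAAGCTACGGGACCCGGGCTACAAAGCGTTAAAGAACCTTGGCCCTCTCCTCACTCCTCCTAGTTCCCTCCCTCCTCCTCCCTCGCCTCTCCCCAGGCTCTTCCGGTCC
Hnrnpf, chr6:117907554-117907803, plus strand: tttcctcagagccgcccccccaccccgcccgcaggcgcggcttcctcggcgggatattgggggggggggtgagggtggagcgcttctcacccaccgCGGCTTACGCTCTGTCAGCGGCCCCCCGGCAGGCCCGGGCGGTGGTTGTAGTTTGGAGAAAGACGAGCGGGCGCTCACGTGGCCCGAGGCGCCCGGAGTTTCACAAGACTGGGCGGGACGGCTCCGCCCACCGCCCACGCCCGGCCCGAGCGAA

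Fxyd4, on chromosome 6 from 117933558 to 117937714 on the minus strand, had the C/EBP beta peak closest to a start site, among the members in the promoter table. FXYD4, also called CHIF, raises the affinity of the sodium pump for sodium in the collecting duct. The peak, in the dDAVP list alone, spanned chr6:117936033-117936257 (225 bp, score 242, rank 957 of 2401). Its centre was inside this short gene of 4.16 kb, 1190 bp downstream of the start site, and the next gene, Hnrnpf, was 10.5 kb away. The second peak in the window, chr6:117907650-117907914 (265 bp, score 284, rank 804 of 2401), was 25.8 kb from Fxyd4. It lay inside Hnrnpf and the overlapping gene 4933440N22Rik, at the Hnrnpf start shown above.

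Scnn1b, on chromosome 7 from 121865038 to 121918728 on the plus strand, held a dDAVP peak at chr7:121890669-121890915 (247 bp, score 220, rank 1065 of 2401). The centre was 25.8 kb downstream of the start site and inside the gene, and the next gene, Cog7, was 32.0 kb away. Scnn1g, on the same chromosome from 121734420 to 121768482, is separated from Scnn1b by 96.6 kb. The peak in Scnn1b was also the nearest C/EBP beta peak to Scnn1g, at 122 kb, and lay 22.3 kb outside the Scnn1g window. The beta and gamma subunits, which assemble with alpha into the channel, thus had a single C/EBP beta peak between them after dDAVP and 0 after vehicle. The nearest vehicle peak was 9.08 Mb from Scnn1b and 8.95 Mb from Scnn1g.

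Nedd4l, on chromosome 18 from 64884480 to 65217826, held a dDAVP peak at chr18:64957598-64957807 (210 bp, score 209, rank 1114 of 2401). The centre was 73.2 kb from the end with the lower coordinate and 296 kb from the next gene, Atp8b1. Nedd4l is 333 kb long and its window of 533 kb is among the 2 largest of the set. The nearest vehicle peak of C/EBP beta was 10.1 Mb away, near Smad7.

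The 2 sites present in both treatments ranked far above the others in the dDAVP list. Kcnj1 and the farther Scnn1a site were at percentiles 97.4 and 97.7 by score, while the 5 sites found after dDAVP alone had scores of 179 to 284 and percentiles of 46.4 to 66.6. The same split held over the whole list, in which the 209 peaks in both lists had a median score of 1104 (quartiles 773 and 1475) and the 2192 others 179 (quartiles 113 and 300). Within these classes the members' sites were unremarkable. Kcnj1 ranked 61 and the farther Scnn1a site 54 of 209, and the other 5 sites ranked 596 to 1080 of 2192. After vehicle both scores, 172 and 124, lay within the quartiles of that list (99 and 202). Scores are those the authors gave to replicate 1 peaks, and since their comparability between lists is unknown, the values after vehicle and dDAVP are not set against each other.

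**Figure D3:**
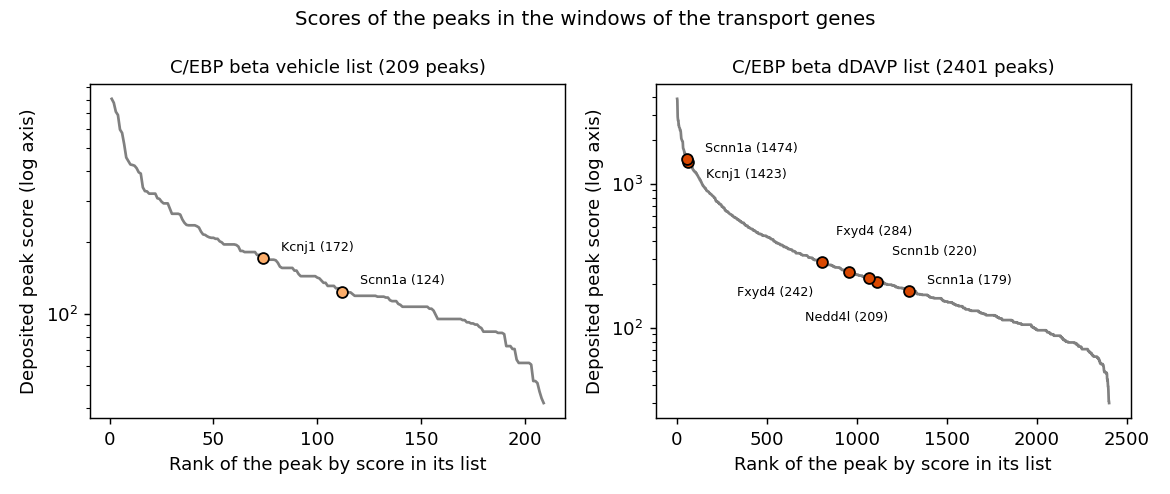
Deposited score of each C/EBP beta peak (log axis) against its rank in the vehicle list (left) and the dDAVP list (right); the grey line is the whole list and circles are peaks in the windows of the transport genes, labelled with gene and score. In the dDAVP list Kcnj1 (1423) and a Scnn1a site (1474) stand near the top, and the other 5 sites stand between 179 and 284 in the middle of the list.

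Genes without a peak in the window differed in how far away the next C/EBP beta peak was. Nr3c2, on chromosome 8 from 76898083 to 77245012, had a dDAVP peak of score 579 inside its neighbour Arhgap10, 132 kb beyond its end with the higher coordinate. Sgk1, on chromosome 10 from 21882184 to 21999903, had its nearest dDAVP peak 201 kb away, near Raet1e, with a score of 74. Atp1b1, on chromosome 1 from 164437099 to 164458355 and encoding the beta subunit of the sodium pump, was the most remote, at 662 kb. Scnn1g and Nr3c2 were thus just outside the limit of 100 kb, and the farthest site just inside it was that of Scnn1a at 66.3 kb. Median distances to the nearest C/EBP beta dDAVP peak were 4.80 kb for the 9 genes and 272 kb for all genes. The median of the 9 is the distance of Scnn1a itself, to the peak 19 bp past the Tnfrsf1a start. It therefore hangs on 1 site whose nearest gene is not a member.

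The nearest CREB1 peaks were far from all 9 genes. After vehicle Scnn1a was closest at 275 kb, from a peak at the chromatin gene Ing4. The other distances ran from 1.79 Mb for Nr3c2, at the replication gene Mcm5, to 8.20 Mb for Sgk1, at the centromere gene Cenpw. After dDAVP the distances ran from 1.79 Mb for Nr3c2 to 14044323 bp for Atp1b1. Median distances for the 9 genes were 2.14 Mb after vehicle and 3.33 Mb after dDAVP, against 0.81 Mb and 1.74 Mb for all genes. For C/EBP beta after vehicle the medians were 1.80 Mb for the 9 genes and 4.17 Mb for all genes.

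**Figure D4:**
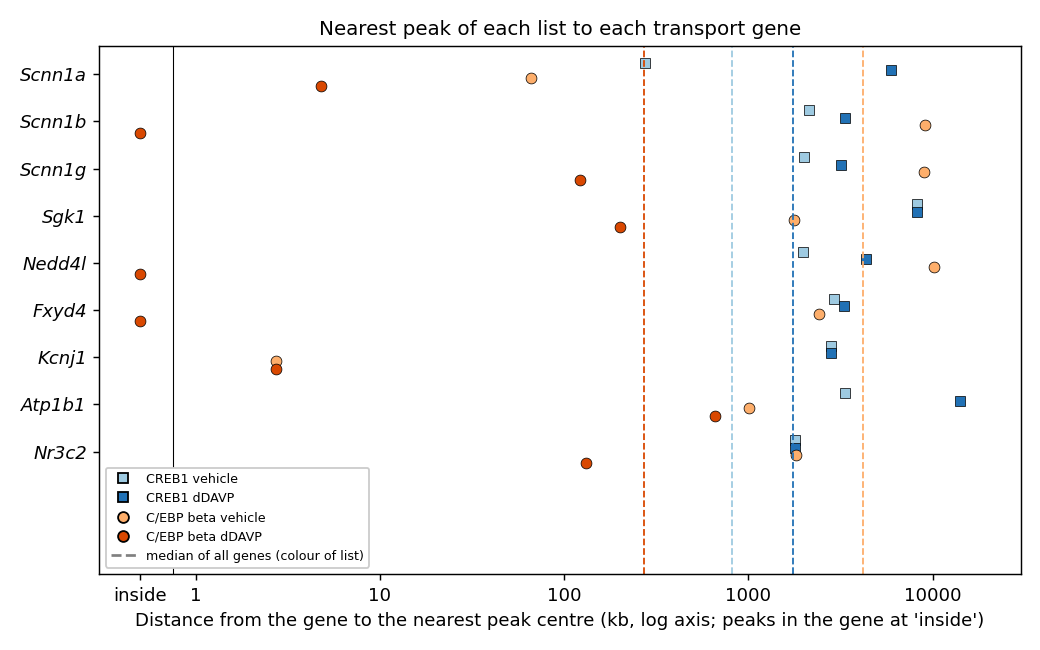
Distance from each transport gene to the centre of the nearest peak of each list, in kb on a log axis, with peaks inside the gene at the left edge; squares are CREB1, circles C/EBP beta, light colours vehicle and dark colours dDAVP, and dashed lines give the median of all genes for each list. All CREB1 squares lie at 275 kb or more, and 8 of the 9 C/EBP beta dDAVP circles lie at 201 kb or less, with Atp1b1 at 662 kb.

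The promoter windows of the members were read for peaks and for the letters of the CREB1 and C/EBP sites. The RefSeq table gave windows from 250 bases before to 50 bases after a start for 7 of the 9 genes, 12 windows in all, of which 6 belong to Sgk1. Scnn1a and Nedd4l had no entry. None of the 12 windows overlapped a peak of any list. Taking the windows as independent, this allows a share of up to 25.0% (3 of 12). The 6 windows of Sgk1 belong to 1 gene, so the real limit is wider. Over the 21045 windows of protein-coding genes the CREB1 peaks overlapped 3.70% (vehicle) and 1.91% (dDAVP), and the C/EBP beta peaks 0.185% (vehicle) and 1.41% (dDAVP).

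The full cAMP response element TGACGTCA was in none of the 12 windows and in 2.26% of all windows, on either strand. Its core TGACG, which the full element contains, was in 2 of the 12 windows, 1 each of Kcnj1 and Sgk1, and in 23.8% of all windows. Among the 779 windows under a CREB1 vehicle peak, 23.5% held the full element and 85.5% the core. Among the 402 windows under a CREB1 dDAVP peak these shares were 27.6% and 90.0%. The Kcnj1 core began 81 bases before the start and that of Sgk1 236 bases before its start, and neither window had a CREB1 peak.

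For C/EBP beta, TTGCGCAA was in none of the 12 windows (0.223% of all windows), nor was the C/EBP-ATF composite TGATGCAA (0.851% of all windows). The looser TTGCNNAA, which includes TTGCGCAA, was in 2 of the 12, 1 each of Sgk1 and Nr3c2, and in 10.3% of all windows. It was in 61.5% of the 39 windows under a C/EBP beta vehicle peak and in 36.5% of the 296 under a dDAVP peak. The 250 bases before the start are shown for the members that held a match and for Fxyd4, whose start was closest to a peak. Capitals mark TGACG and TTGCNNAA, and the Fxyd4 sequence has neither. Of the Nr3c2 window, a second TTGCNNAA match lies on the other strand beyond the start and is not in the stretch shown. A match is a description of letters and not a binding site.
Kcnj1, chr9:32393735-32393984, plus strand: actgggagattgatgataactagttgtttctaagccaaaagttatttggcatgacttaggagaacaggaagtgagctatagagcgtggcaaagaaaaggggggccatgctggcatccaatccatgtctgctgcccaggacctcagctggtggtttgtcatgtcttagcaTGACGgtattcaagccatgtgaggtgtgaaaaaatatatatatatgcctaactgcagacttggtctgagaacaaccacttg
Sgk1, chr10:21978422-21978671, plus strand: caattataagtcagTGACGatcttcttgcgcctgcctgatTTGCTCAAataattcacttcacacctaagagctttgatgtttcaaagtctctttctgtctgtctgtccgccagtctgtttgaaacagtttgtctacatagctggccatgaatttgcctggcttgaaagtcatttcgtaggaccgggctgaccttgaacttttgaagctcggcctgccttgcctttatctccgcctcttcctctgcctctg
Nr3c2, chr8:76902080-76902329, plus strand: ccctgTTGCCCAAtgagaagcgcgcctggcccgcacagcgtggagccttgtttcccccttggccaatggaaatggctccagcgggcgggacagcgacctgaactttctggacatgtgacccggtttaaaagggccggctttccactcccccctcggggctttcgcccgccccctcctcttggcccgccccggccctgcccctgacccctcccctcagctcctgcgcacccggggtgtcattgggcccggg
Fxyd4, chr6:117937336-117937585, minus strand: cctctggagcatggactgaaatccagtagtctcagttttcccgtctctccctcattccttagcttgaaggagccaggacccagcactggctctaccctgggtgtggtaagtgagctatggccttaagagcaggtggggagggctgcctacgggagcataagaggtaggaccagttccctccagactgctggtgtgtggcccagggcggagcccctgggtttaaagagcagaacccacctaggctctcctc

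Other genes of the same pathways were read from 5 wider lists with 62 genes. C/EBP beta peaks after dDAVP were in the windows of 31 of 62 (50.0%, against 29.5% of all genes) and within 5 kb of 9 (14.5%, against 7.83%). The vehicle list of C/EBP beta reached 4 of 62 windows (6.45%, against 3.47%). CREB1 peaks were in the windows of 8 of 62 after vehicle (12.9%, against 18.0% of all genes). After dDAVP they were in 6 (9.68%), a share near the 10.4% of all genes.

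The list of genes of the aldosterone and glucocorticoid response had C/EBP beta dDAVP peaks in 8 of 10 windows (80.0%, against 29.5% of all genes). After vehicle it had 0 of 10, which with so few genes is near the 3.47% of all genes. Nr3c2 and Sgk1 belong to the same response but are counted among the members and not in this list. Neither had a peak in its window, so the 80.0% would be lower with them. Peaks stood inside Per1, a clock gene that aldosterone induces (score 601), inside Tsc22d3, which encodes the glucocorticoid-induced protein GILZ (score 96), and inside Zbtb16, a zinc finger factor (score 199). At Usp2, a deubiquitinase gene, a peak of score 328 lay 97 bp from the gene. The glucocorticoid receptor gene Nr3c1 had a peak 5.87 kb away (score 329), in contrast to Nr3c2, where the nearest was 132 kb away. Hsd11b2, whose product inactivates glucocorticoids so that aldosterone can act, had one 13.9 kb away (score 179), nearest to Zdhhc1. Per1 also had a CREB1 peak 101 bp away after vehicle, while after dDAVP the nearest was 86.6 kb away, at Pfas. This is not particular to Per1, since only 397 of all 785 CREB1 vehicle peaks overlapped a CREB1 dDAVP peak.

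Among proteins that act on ENaC, 10 of 18 genes had a C/EBP beta dDAVP peak in the window (55.6%, against 29.5% of all genes). Only 1 had a peak within 5 kb (5.56%), a share near the 7.83% of all genes. The gene within 5 kb was Furin, a protease that cleaves ENaC subunits, with a peak of score 251 inside the gene. Ywhaq, which encodes a 14-3-3 protein, had a site in both lists 9.33 kb away after dDAVP (score 1598) and 9.35 kb after vehicle (score 168). The site 14.4 kb from Stx1a (score 2735 after dDAVP, 519 after vehicle) was nearest to Abhd11. Peaks near Spint1, a protease inhibitor gene, and near Nedd4 and Hgs were nearest to Rhov, Rfx7 and Slc25a10. CREB1 peaks were in the windows of Stx1a, Dot1l and Spint1 in both treatments (3 of 18, 16.7%, against 18.0% of all genes after vehicle and 10.4% after dDAVP), nearest to Bud23 and Oaz1 for Stx1a and Dot1l and to Vps18 after vehicle or Rmdn3 after dDAVP for Spint1.

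Among the other potassium channels and cotransporters, 6 of 15 had a C/EBP beta dDAVP peak in the window (40.0%, against 29.5% of all genes). Kcnq1, a voltage-gated channel gene, held a site in both lists, with a score of 887 after dDAVP and 73 after vehicle. Kcnk1, a leak channel gene, held a dDAVP peak of score 132, and Slc12a3, the thiazide-sensitive cotransporter of the distal convoluted tubule, one of score 525. The vehicle peak in the Slc12a3 window was 20.1 kb away and nearest to Herpud1. Kcnj10 had a peak of score 921 at 33.1 kb, nearest to Igsf8, Slc4a4 one of score 63 at 38.9 kb, and Kcnmb4 one of score 296 at 98.4 kb. A CREB1 peak was in 1 of the 15 windows after vehicle (6.67%, against 18.0% of all genes) and in 0 after dDAVP (against 10.4%).

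The other sodium pump subunits had C/EBP beta dDAVP peaks in 4 of 10 windows (40.0%, against 29.5% of all genes). After vehicle they too had 0 of 10, near the 3.47% of all genes. That of Atp1b2, a beta subunit gene, was 65.5 kb away (score 295) and nearest to Eif4a1. Atp1b2 was also the one pump gene with a CREB1 peak in its window, 66.5 kb away in both treatments and nearest to Eif4a1. The WNK kinase pathway sets the balance of sodium and potassium transport. In it 3 of 9 genes had a C/EBP beta dDAVP peak in the window (33.3%), a share near the 29.5% of all genes. Within 5 kb it was 0 of 9, against 7.83% of all genes. These peaks, near Wnk4, Oxsr1 and Wnk1, were each nearest to another gene. Oxsr1, a kinase activated by WNK kinases, had a CREB1 peak 201 bp away after vehicle and none in the window after dDAVP. Over the whole lists, 397 of the 785 CREB1 vehicle peaks overlapped a dDAVP peak. Wnk4 had CREB1 peaks 24.9 kb away after vehicle and 38.6 kb after dDAVP.

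**Figure D5:**
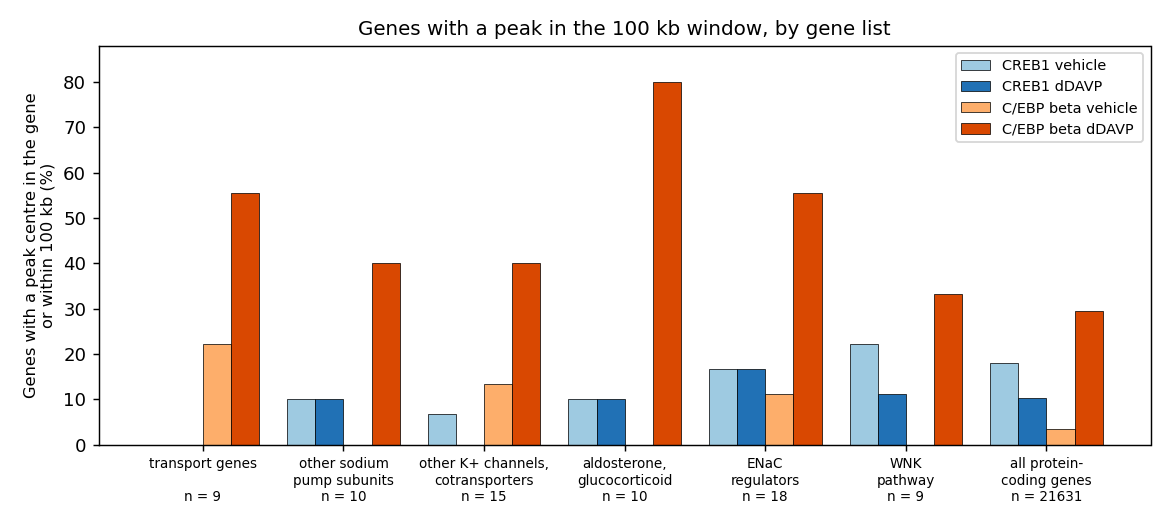
Percentage of genes with a peak centre in the gene or within 100 kb, for the 9 transport genes, the 5 wider lists and all protein-coding genes (n under each group); bars are the 4 peak lists. The dDAVP bars of C/EBP beta run from 33.3% (WNK pathway) to 80.0% (aldosterone and glucocorticoid list, without Nr3c2 and Sgk1), with 29.5% for all genes.

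Over the 4 lists, 3 of the 9 genes (Scnn1b, Nedd4l and Fxyd4) had C/EBP beta peaks in the window after dDAVP alone, as did 18.4% of all genes, and 2 (Scnn1a and Kcnj1) had C/EBP beta peaks in both treatments without CREB1, as did 2.36%. Genes with the most similar pattern were ranked by the distance between log2 values of the highest score (C/EBP beta) or largest width (CREB1) in the window over the 4 lists. For Kcnj1 these were its neighbours Kcnj5 and Fli1, whose windows hold the same peak (distance 0), and Usp25 on chromosome 16, a deubiquitinase gene with scores of 173 and 1360 after vehicle and dDAVP (distance 0.0616). For Scnn1a they were its neighbours Cd9, Ltbr and Plekhg6, whose windows hold the same peak (distance 0). For Scnn1b, Nedd4l and Fxyd4, 34, 48 and 32 genes were tied at distance 0, because a single score decides the pattern. The first by name were 9530053A07Rik, Atp6v0e and Atxn2 for Scnn1b, Ankar, Atp5c1 and BC024139 for Nedd4l, and 4933440N22Rik, Atp6v1g3 and C2cd6 for Fxyd4. The score that decided for Fxyd4 was 284, of the peak at the Hnrnpf start, and not that of the peak inside Fxyd4. Its neighbour 4933440N22Rik holds the same peak.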

How the data were processed

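ChIP-seq peak positions for CREB1 and C/EBP beta were deposited as 4 lists. BWA, SAMtools, MACS2, bedtools and mm10 are named in the submitters' processing notes, without roles or versions. A method for combining replicates is not given in the sources used here. For C/EBP beta alone the authors deposited a peak score, without a stated scale. Per the peak names in those lists, all scored peaks are of replicate 1, called with a bandwidth of 300, 1 duplicate and q of 0.01. The depth is unknown.

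Groups came from sample titles. Positions count from 1. Genes and promoter windows came from RefSeq tables of GRCm38.p6, and sequences are credited to RefSeq. All 62 genes of the wider lists were found. Distance to a gene was taken from the centre of the peak (0 inside the gene) and computed with Python 3.11.15, pandas 2.3.3 and numpy 2.4.6. An overlap of 1 bp made a site shared between treatments. Placement was tested on simulated data. No test over samples was possible.

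The members and lists were chosen with earlier results of these data known. All members were named. So were up to 6 genes per wider list and peak list, the closest first, the nearest gene of each peak in a window and up to 3 genes of similar pattern per member. Single results of some genes of the wider lists are not reported here. Alternatives covered windows of 50 and 200 kb, distances of 1 and 10 kb, any overlap with the window, the upper 50% of peaks (by score, or by width for CREB1), the nearest gene alone, stricter overlaps and a shortened dDAVP list.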

Additional observations from a re-analysis of the deposited data

How the results depend on the processing

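Of 61 alternatives, 50 left a count within 1.5 times its main value and 11 moved it. CREB1 counts at the 9 genes stayed at 0 under each alternative run. With 0 within 100 kb, only the 200 kb window and any overlap with the window could have changed them. The other CREB1 alternatives at these genes were bound to give 0, and they are counted among the 50. Within 50 kb, the C/EBP beta vehicle list held 1 gene and 1 peak (from 2 and 2), and the wider lists had 3 genes for CREB1 after dDAVP (from 6). In the upper 50% of peaks that vehicle list held 1 gene and 1 peak, and the wider lists had 5 genes for CREB1 in vehicle cells (8 in the full list) and, for C/EBP beta, 2 in vehicle cells (4 in the full list) and 20 with dDAVP (31 in the full list; 32.3%, against 17.2% of all genes). Counting only nearest genes left the C/EBP beta vehicle list with 1 gene. At 1 kb, C/EBP beta had 3 genes after dDAVP (from 5, the peaks of Scnn1a and Kcnj1 being farther) and 0 genes after vehicle, down from 1. Fewer peaks or shorter distances lower such counts by construction. The C/EBP beta dDAVP count of 5 genes ranged from 4 (nearest gene only) to 7 (200 kb, where 42.8% of all genes had a peak). Both vehicle peaks in the windows overlapped a dDAVP peak also when the dDAVP list was reduced to its 209 best scores (795 or more). This is not particular to the members. All 209 vehicle peaks overlapped a peak of the full dDAVP list, and the shared dDAVP peaks had a lower quartile of 773. No paired analysis was possible because the lists hold no values per sample and no result comes from a test. For the same reason no replicate could be left out.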
